A study of Mus musculus with 12 samples.

Results

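The response of brown fat to cold after deletion of Cdk7 was measured in 6 of the 12 libraries of the series. Of these, 3 were of mice kept at room temperature and 3 of mice exposed to cold for 6 h. All 6 carried the label Cdk7 bKO, a knockout directed to brown adipose tissue, and are called KO here. The other 6 libraries, of control littermates labelled wild type (WT), had the same conditions with 3 libraries each. They serve as the measure of the response without the deletion. Each library was made from interscapular brown fat of a pool of 2 mice, 250 ng of RNA from each, so that 3 pools per group stand for 6 mice. All mice were C57BL/6, 12 weeks old, kept on a 12-h light cycle with standard chow, taken at zeitgeber time 9, and the cold groups had food. The sources used here did not give the driver of the deletion, the deleted exons, the temperatures or the sex of the mice. Since each pool is the unit of replication, p-values set a change against the spread between pools. That spread was estimated over all 12 libraries.

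Brown fat burns lipid to make heat. Noradrenaline released in the cold acts on beta-adrenergic receptors, raises cAMP and turns on lipolysis and a transcriptional programme that includes Ucp1, the mitochondrial uncoupler. Cdk7 gives the CDK-activating kinase its catalytic activity. As part of the general transcription factor TFIIH it phosphorylates RNA polymerase II as it leaves the promoter. Inducible genes with little transcript at rest, such as the heat shock genes driven by the factor Hsf1, depend on rapid loading and release of polymerase.

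Of the 29 gene lists examined, the heat shock list had the highest median rise in KO brown fat, and its promoters are shown for that reason. Below are the 250 bases before the start of Hspa1a (chr17:34972157-34972406, minus strand), Hspa1b (chr17:34959239-34959488, minus strand), Hspb1 (chr5:135887669-135887918, plus strand) and Hspe1 (chr1:55087898-55088147, plus strand), from RefSeq on GRCm38.p6, written 5′ to 3′ in the direction of the gene. Capitals mark GAANNTTC, a short form of the heat shock element.
Hspa1a: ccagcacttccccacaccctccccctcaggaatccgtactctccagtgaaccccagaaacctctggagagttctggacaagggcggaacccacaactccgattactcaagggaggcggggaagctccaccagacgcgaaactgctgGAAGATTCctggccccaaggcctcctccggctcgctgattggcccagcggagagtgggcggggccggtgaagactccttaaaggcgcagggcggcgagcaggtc
Hspa1b: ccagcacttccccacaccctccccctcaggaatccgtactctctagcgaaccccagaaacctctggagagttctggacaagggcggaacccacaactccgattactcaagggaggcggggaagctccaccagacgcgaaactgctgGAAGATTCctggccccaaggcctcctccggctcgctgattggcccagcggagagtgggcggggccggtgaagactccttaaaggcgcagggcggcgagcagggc
Hspb1: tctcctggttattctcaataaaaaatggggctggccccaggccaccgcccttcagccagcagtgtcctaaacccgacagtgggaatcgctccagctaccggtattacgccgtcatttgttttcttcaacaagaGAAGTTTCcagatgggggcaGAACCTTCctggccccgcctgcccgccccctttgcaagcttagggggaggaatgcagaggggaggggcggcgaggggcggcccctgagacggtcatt
Hspe1: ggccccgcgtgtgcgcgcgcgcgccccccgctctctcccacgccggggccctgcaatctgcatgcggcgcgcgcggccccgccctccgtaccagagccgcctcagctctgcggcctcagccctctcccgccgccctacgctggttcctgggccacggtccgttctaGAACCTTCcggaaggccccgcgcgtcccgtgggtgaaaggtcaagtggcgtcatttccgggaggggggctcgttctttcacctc
The printed stretches of Hspa1a and Hspa1b were identical at 247 of 250 positions. In both, the match began 104 bases before the start, and Hspb1 had 2 matches, beginning 117 and 97 bases before it. Searched over the 250 bases before and 50 after each start, the motif (its own reverse complement, so found on both strands at once) was in 12 of the 20 promoters listed for 15 of the 20 heat shock genes, or 60.0%. It was in 5.84% of the 14205 promoters of all genes tested, in 8.50% of those of genes higher in cold in KO and in 5.37% of those of genes lower. All promoters printed here hold a match. Other heat shock genes that were higher in cold in KO had none, and a member not called higher held one. A match describes the letters of the window and does not show that a factor was bound.

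Total gene counts per KO library ran from 27815380 to 33633044, and log2 levels correlated across genes at 0.976 to 0.991 within a KO group and 0.968 to 0.982 between the KO groups. Cdk7 itself checked the labels. At room temperature the KO pools held 4.35, 5.15 and 5.77 CPM of Cdk7 (counts scaled to a common library size by TMM factors), and in the cold 5.39, 4.85 and 5.39, against 15.1 to 18.0 in the 6 WT pools. All 6 KO pools lay below all WT pools, and cold left no detectable change in KO (log2 fold change 0.04 ± 0.12, SE). Cdk7 transcript was thus reduced in the KO pools and not absent, and the source of the remaining counts was not tested. The 10 brown adipocyte markers were all detected, with a summed level of 12843.5 to 15798.1 CPM in the KO pools. Skeletal muscle transcripts varied between libraries of both genotypes. The summed level of 15 muscle markers was 52.7, 39.5 and 1398 CPM in KO room temperature replicates 4, 5 and 6, and 43.0, 193 and 303 CPM in KO cold replicates 1, 2 and 3. In WT it was 481, 1072 and 168 CPM in room temperature replicates 1, 2 and 3 and 68.4 to 168 CPM in the cold pools. KO replicate 6 and WT replicate 2 at room temperature, the highest pool of each genotype, were therefore also left out together, and in another fit the marker level was a covariate. In tissue of mixed cells, fewer cells of a type and less RNA per cell cannot be told apart.

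Cold changed 2258 of 15208 genes tested in KO brown fat, 14.8% (edgeR's quasi-likelihood test, Benjamini-Hochberg adjusted p below 0.05): 1109 were higher in the cold (7.29%) and 1149 lower (7.56%). Of these, 237 rose and 155 fell by more than 2-fold. In 4984 genes, 32.8%, the 3 cold pools did not overlap the 3 room temperature pools. With the muscle marker level as a covariate 1054 genes were higher and 1061 lower. The counts depended on single pools, and the part of muscle transcripts in this was not tested. Without room temperature replicate 6 they were 641 higher and 687 lower. Without room temperature replicate 4, 724 were higher. Without cold replicate 1 the counts were 601 and 570, and without cold replicate 2 they were 626 and 648. With library totals alone in place of TMM factors 801 were higher and 675 lower. The same test in WT called 7034 genes (46.3%), 3503 higher (23.0%) and 3531 lower (23.2%). The counts of list members below are to be read against these shares.

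**Figure D1:**
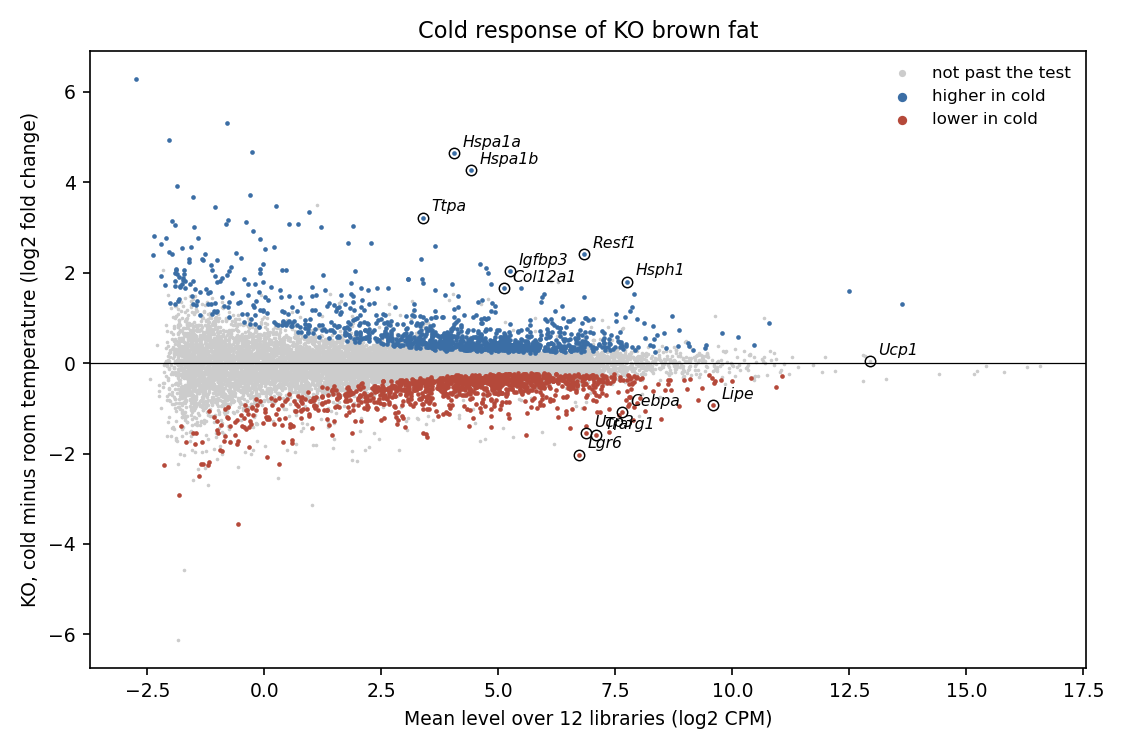
Cold response of each of the 15208 genes in KO brown fat: mean level over 12 libraries on the x axis (log2 CPM) against the log2 fold change between 3 cold and 3 room temperature pools on the y axis. Blue points (1109) are higher and red points (1149) lower at an adjusted p below 0.05; Hspa1a and Hspa1b stand above 4, and Ucp1, at the right, lies on the zero line.

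Genes of the heat shock response, whose products refold or hold damaged proteins, rose together. Of 20 tested members 17 were higher in the cold in KO, 1 was lower and 2 did not pass, with a median log2 fold change of 0.67 against -0.02 over all genes. The count was 12 without room temperature replicate 4, without cold replicate 2, or with replicate 6 of KO and replicate 2 of WT at room temperature both left out, and was between 14 and 17 under the 13 other settings. Hspa1a (chr17:34969190-34972156, minus strand), an inducible Hsp70 chaperone, held 2.19, 1.84 and 1.70 CPM in the room temperature pools, and 60.3, 37.5 and 46.5 CPM in those taken from the cold. Its cold pools were all far above its room temperature pools, 25.2-fold on the means (log2 4.65 ± 0.32, adjusted p = 2.5e-05). Its neighbour Hspa1b went from 3.67, 3.40 and 1.30 CPM to 71.8, 47.4 and 43.7 CPM (log2 4.27 ± 0.44). Hspa1a and Hspa1b are near-identical copies, so reads common to both were not counted, and Hspa1a overlaps a gene on the other strand, which makes both levels uncertain.

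The co-chaperone Hsph1, which recharges Hsp70 with nucleotide, rose from 70.6, 125 and 97.7 to 360, 368 and 297 CPM, with no overlap (log2 1.80 ± 0.19, adjusted p = 8.0e-05). The constitutive Hsp70 Hspa8 rose from 768, 700 and 659 to 1254, 1393 and 1310 CPM (log2 0.90 ± 0.10, adjusted p = 1.9e-05), and its gene overlaps small nucleolar RNA genes on the same strand. Of the small heat shock proteins, Hspb1 rose from 64.2, 75.7 and 72.8 to 138, 139 and 131 CPM, and Hspb8, a partner of the chaperone Bag3, from 82.8, 88.7 and 86.8 to 136, 143 and 121 CPM. The Hsp90 gene Hsp90ab1 rose from 697, 826 and 802 to 929, 1078 and 1074 CPM (log2 0.41 ± 0.10, adjusted p = 0.013), a call lost without room temperature replicate 4 (adjusted p = 0.050) or cold replicate 2 (adjusted p = 0.063).

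In WT 18 of the 20 members were higher in the cold, with a median of 1.91, and all 20 had a smaller log2 fold change in KO than in WT. This compares changes, and the levels of the genotypes can differ at room temperature already. The difference between the responses passed its own test for 16 members, all with the KO response below that of WT (11 with library totals alone). Over all genes this difference was called in 3581, 23.5%, with 1614 above and 1967 below, and with totals alone the split was 2388 above and 711 below while the median difference of all genes moved from 0.01 to 0.24. Hspa8 rose by 3.09 ± 0.11 in WT, a difference of -2.20 ± 0.14 (adjusted p = 2.1e-07). Hsph1 rose by 3.64 ± 0.20 in WT and differed by -1.83 ± 0.26, Hsp90ab1 differed by -1.52 ± 0.14, Hspb8 by -1.34 ± 0.12 and Hspb1 by -0.96 ± 0.14 (adjusted p at most 0.00063). For Hspa1a the difference was -0.65 ± 0.56 and for Hspa1b -1.03 ± 0.71, and neither passed (adjusted p = 0.45 and 0.34). The mean levels of both were higher in KO than in WT at both temperatures. Hspa1a held 1.91 against 0.384 CPM at room temperature and 48.1 against 15.7 CPM in the cold. Hspa1b held 2.79 against 0.655 CPM and 54.3 against 26.9 CPM.

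**Figure D2:**
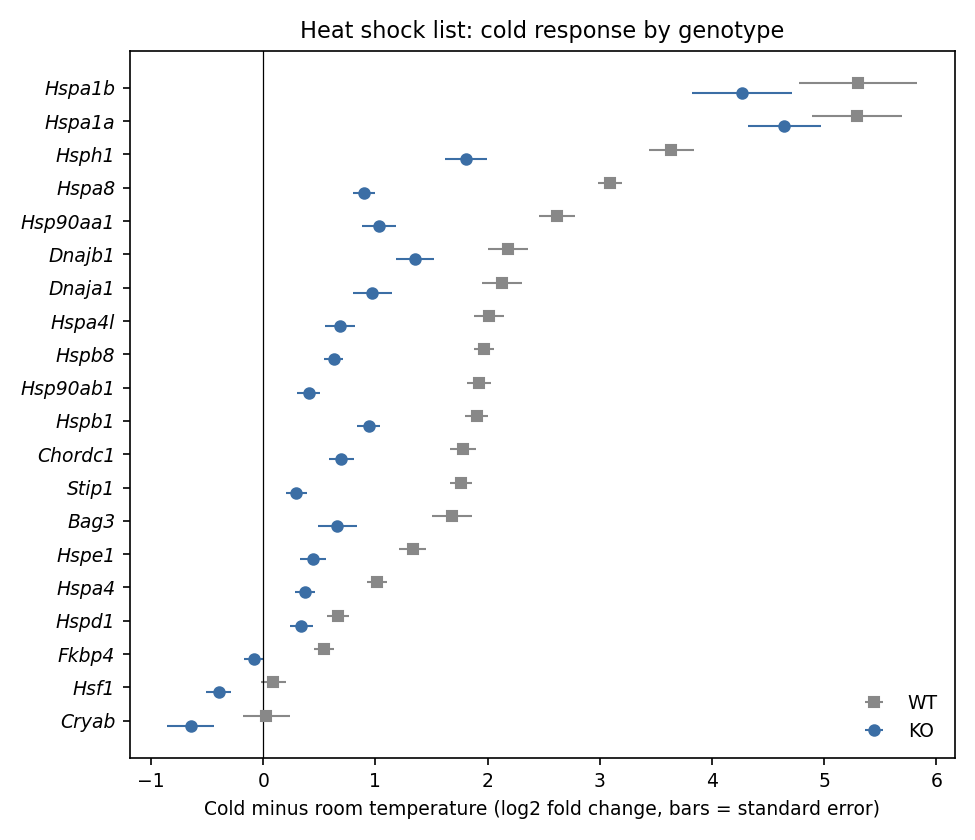
Cold response (log2 fold change, x axis) of the 20 heat shock genes (y axis), in KO (circles) and WT (squares), each from 3 against 3 pools, with bars for the standard error. All 20 KO values lie to the left of the WT value, and Hspa1a and Hspa1b are above 4 in both genotypes.

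The thermogenic genes Ucp1 and Ppargc1a showed no detectable change in KO. Ucp1 (chr8:83290352-83298452, plus strand) stood at 4395, 3906 and 3608 CPM at room temperature and at 3723, 4283 and 4207 CPM in the cold in KO. The groups overlapped, and the log2 fold change was 0.04 ± 0.12 (adjusted p = 0.88). In WT it rose by 1.14 ± 0.12, and the difference of -1.10 ± 0.17 passed its test (adjusted p = 0.00037). Ppargc1a, the coactivator of mitochondrial biogenesis, stood at 412, 544 and 698 CPM and at 421, 480 and 582 CPM in KO, where the log2 fold change was -0.16 ± 0.39, against 2.48 ± 0.41 in WT. That difference, -2.64 ± 0.56, had an adjusted p of 0.011, and of 0.058 with replicate 6 of KO and replicate 2 of WT at room temperature left out. The Ppargc1a level in WT was 271, 223 and 100 CPM at room temperature, below all KO pools, and 1304, 1293 and 706 CPM in the cold.

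Dio2, the enzyme that activates thyroid hormone inside brown adipocytes, moved upward without passing the test. It stood at 656, 1032 and 871 CPM at room temperature and at 1667, 1847 and 1574 CPM in the cold. The KO groups did not overlap and the log2 fold change was 0.99 ± 0.39 (adjusted p = 0.13, and 0.00096 when only the 6 KO libraries were fitted, 1 of 3 among 16 alternatives that passed), against 2.72 ± 0.41 in WT. The difference did not pass (-1.73 ± 0.54, adjusted p = 0.051), and Dio2 overlaps a gene on the other strand.

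Of 22 tested thermogenic and brown fat genes 1 was higher and 6 were lower in the cold in KO, with a median of -0.04. In WT 9 were higher and 5 lower, and 7 and 8 with library totals alone. Ucp3, the uncoupling protein relative expressed in brown fat and muscle, fell from 102, 55.1 and 61.3 to 24.9, 23.1 and 26.4 CPM (log2 -1.56 ± 0.26, adjusted p = 0.0046), and it fell in WT too (-0.98 ± 0.25). Room temperature replicate 6, rich in muscle transcripts, held the middle of the 3 Ucp3 values, and the part of muscle tissue in the fall was not tested. Esrrg, an oestrogen-related receptor, fell from 26.1, 23.6 and 23.1 to 13.0, 11.7 and 11.1 CPM (adjusted p = 1.5e-06). It fell in WT too (-0.73 ± 0.08), and the difference did not pass (-0.30 ± 0.12, adjusted p = 0.076). Ebf2, a factor of brown adipocyte identity, fell from 49.5, 38.7 and 49.4 to 27.5, 27.0 and 23.3 CPM, and overlaps a gene on the other strand. In WT it fell as well (-0.55 ± 0.10), and the difference did not pass (-0.27 ± 0.14, adjusted p = 0.18). The other oestrogen-related receptors, Esrra and Esrrb, did not pass in KO (-0.14 ± 0.09 and 0.48 ± 0.29) and rose in WT, with differences of -0.61 ± 0.13 and -2.33 ± 0.41. The Esrra difference was lost with library totals alone (adjusted p = 0.12), and Esrra shares exons with Trmt112. Otop1, a proton channel enriched in brown fat, fell by 0.38 (SE 0.08) on the log2 scale. Its change in WT was -0.15 ± 0.08, and the difference did not pass (adjusted p = 0.15).

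**Figure D3:**
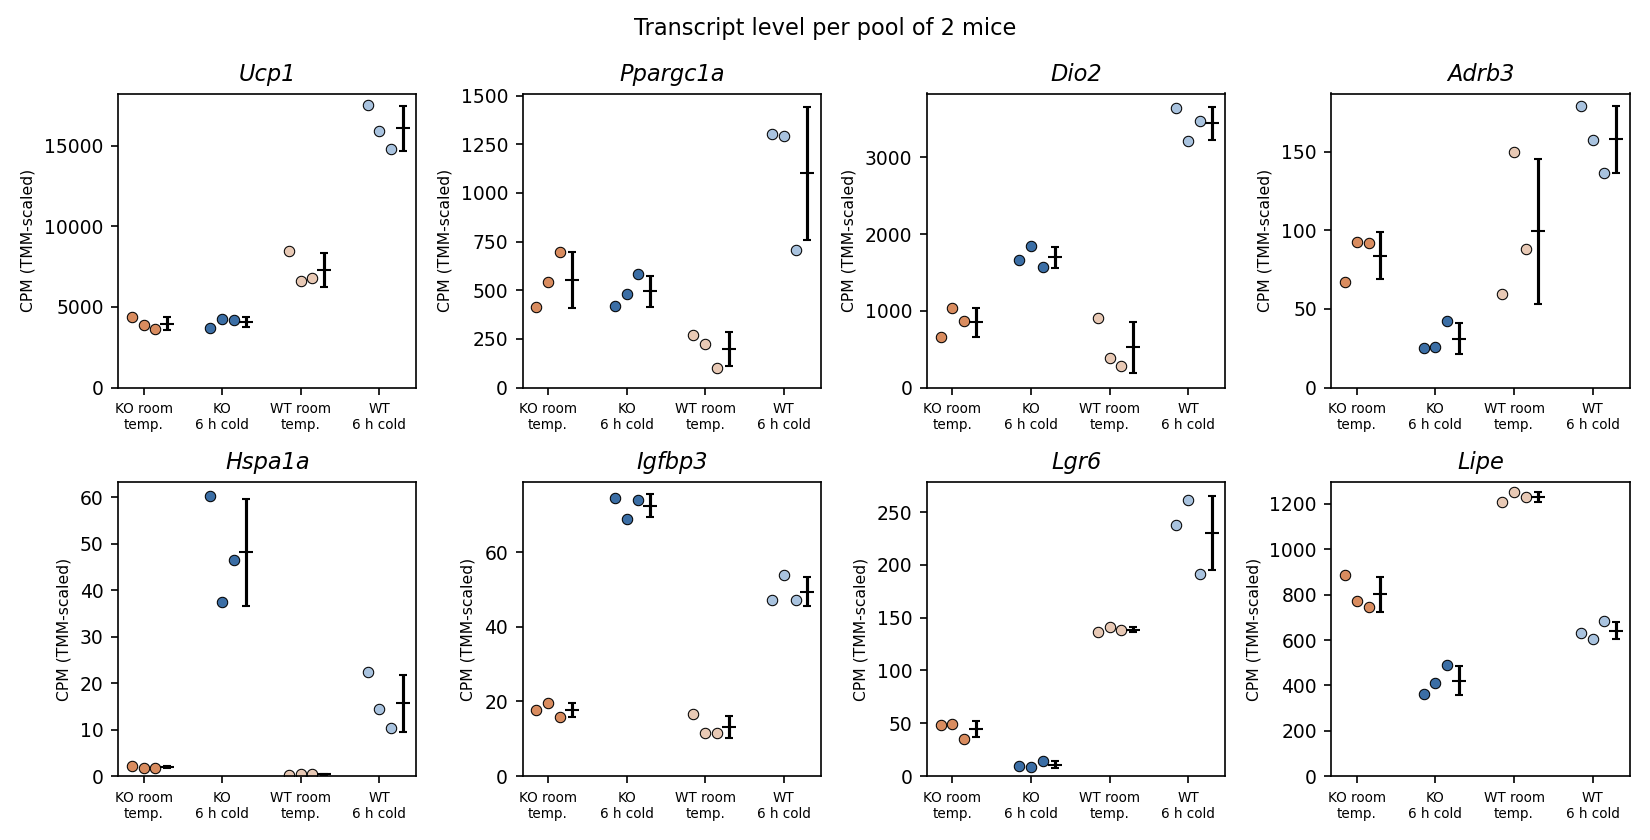
Level of 8 transcripts in each pool of 2 mice (y axis, TMM-scaled CPM from 0) by genotype and temperature (x axis). Points are the 3 pools of a group and the bar beside them is their mean with its SD; in KO, Ucp1 and Ppargc1a overlap between temperatures, Hspa1a and Igfbp3 are high in the cold, and Lgr6, Lipe and Adrb3 are low.

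Receptors and enzymes of adrenergic signalling moved both ways. Of 30 genes of beta-adrenergic and cAMP signalling 7 fell and 3 rose in KO, against 3 and 12 in WT. With library totals alone the WT counts were 5 and 6, and the differences from WT, 8 below and none above, became 5 below and 1 above. Adrb3, the main adrenergic receptor of rodent fat cells, stood at 66.9, 92.7 and 92.2 CPM at room temperature and at 24.9, 25.8 and 42.6 CPM in the cold. Its groups did not overlap and it fell by 1.43 (SE 0.36) on the log2 scale, adjusted p = 0.030. This call was lost under 5 of 16 alternatives, among them leaving out room temperature replicate 5 or 6 or cold replicate 1 or 2 (adjusted p from 0.064 to 0.11) and library totals alone (0.055). In WT the change was 0.67 ± 0.35 and the difference -2.10 ± 0.50 (adjusted p = 0.017). Adrb3 overlaps a gene on the other strand.

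The receptor Adrb1 fell from 17.9, 25.8 and 17.2 to 10.9, 10.7 and 13.6 CPM (adjusted p = 0.0049), and its response lay below that of WT by 0.95 (difference -0.95 ± 0.22, adjusted p = 0.0075). The alpha receptor Adra1a fell from 104, 121 and 92.1 to 66.5, 62.8 and 63.3 CPM. Prkaca, the catalytic subunit of protein kinase A, fell from 233, 221 and 232 to 145, 156 and 162 CPM (adjusted p = 0.00027), and the phosphodiesterase Pde4a from 51.2, 39.8 and 61.2 to 24.6, 25.1 and 27.1 CPM. Adra1a and Prkaca fell in WT too (-0.31 ± 0.12 and -0.26 ± 0.08), and their differences did not pass. Pde4a did not pass in WT (-0.29 ± 0.13), a difference of -0.70 ± 0.19 (adjusted p = 0.017). The adenylyl cyclase Adcy3 did not pass in KO (0.21 ± 0.19) and rose by 1.35 ± 0.20 in WT. Its difference of -1.13 ± 0.27 had an adjusted p of 0.012, and of 0.056 with replicate 6 of KO and replicate 2 of WT at room temperature left out. Adcy4, found mainly in endothelium, fell in KO (-0.41 ± 0.10) and rose in WT (0.55 ± 0.10), with a difference of -0.97 ± 0.14. Its fall in KO was lost without cold replicate 1 (adjusted p = 0.073). Crem, which encodes cAMP-responsive activators and the repressor ICER, rose in KO from 21.8, 29.2 and 26.5 to 45.2, 42.8 and 41.4 CPM (log2 0.74 ± 0.14), against 0.69 ± 0.15 in WT.

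Among 23 immediate-early transcription factors, whose genes answer signals without new protein synthesis, 5 rose and 1 fell. Atf3, a stress-induced bZIP factor, rose from 13.6, 19.6 and 17.3 to 84.6, 59.4 and 72.5 CPM (log2 2.10 ± 0.38, adjusted p = 0.0082). Fosl1, a Fos family member, rose from 0.356, 0.286 and 0.196 to 3.74, 2.71 and 3.08 CPM, and overlaps Ccdc85b. Atf3 and Fosl1 rose in WT too (1.73 ± 0.43 and 3.53 ± 0.43), and neither difference passed. Jund did not pass in KO (-0.23 ± 0.16) and rose by 0.86 ± 0.17 in WT, a difference of -1.10 ± 0.23. In WT 9 of the 23 genes rose and 4 fell. The differences of this list went both ways, 4 above WT and 2 below, and 5 and 1 with library totals alone.

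In the lipolysis and lipid droplet list 5 of 16 genes fell and 1 rose, median -0.24. Lipe, hormone-sensitive lipase, fell from 887, 772 and 744 to 363, 411 and 490 CPM, with all cold pools below all room temperature pools (log2 -0.93 ± 0.11, adjusted p = 3.0e-05). It fell in WT too (-0.94 ± 0.11), and the difference was 0.02 ± 0.15. Plin1, which coats the lipid droplet and gates lipolysis, fell from 728, 675 and 663 to 489, 538 and 571 CPM (adjusted p = 0.011, and 0.067 without cold replicate 1). Plin5, the perilipin that tethers droplets to mitochondria, fell from 135, 127 and 104 to 87.5, 89.2 and 80.0 CPM and not in WT (0.19 ± 0.10). Its difference of -0.70 ± 0.14 was lost with library totals alone (adjusted p = 0.065). Hilpda, an inhibitor of adipose triglyceride lipase, rose from 2.30, 2.42 and 2.12 to 6.67, 4.01 and 3.73 CPM.

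In lipogenesis and triglyceride synthesis 7 of 22 genes fell and 1 rose, median -0.31, against 10 and 4 in WT, median -0.26. Srebf1, the master factor of fatty acid synthesis, fell from 319, 157 and 206 to 71.1, 82.5 and 85.5 CPM (log2 -1.51 ± 0.27, adjusted p = 0.0061), and overlaps Rai1. Mlxipl, the carbohydrate-responsive factor ChREBP, fell from 480, 321 and 466 to 172, 204 and 227 CPM (adjusted p = 0.0042), and overlaps a gene on the other strand. Srebf1 and Mlxipl fell in WT too (-1.82 ± 0.27 and -1.17 ± 0.20), and neither difference passed. Dgat2, which makes triglyceride from newly synthesised fatty acids, fell from 614, 355 and 413 to 243, 278 and 259 CPM. In WT the fall of Dgat2 was larger, and the difference was 1.18 ± 0.22 (adjusted p = 0.0021). Lpin1, a phosphatidate phosphatase, fell in KO from 570, 485 and 505 to 243, 295 and 265 CPM (adjusted p = 7.6e-06) but stood at -0.04 ± 0.10 in WT, a difference of -0.92 ± 0.13 (adjusted p = 0.00026). Dgat1 and Gpam, the acyltransferases of the last and the first step, rose in WT by 1.42 ± 0.13 and 0.93 ± 0.11 and did not pass in KO (0.36 ± 0.13 and -0.18 ± 0.11), with differences of -1.07 ± 0.18 and -1.11 ± 0.15.

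In the list for uptake and oxidation of fatty acids 1 of 28 genes was higher and 1 lower in KO, against 6 and 10 in WT. Its differences from WT went both ways, 6 above and 5 below, and 9 and 3 with library totals alone. The 2 genes that follow are given with their KO levels. Gpihbp1, the capillary anchor of lipoprotein lipase, rose from 87.2, 88.5 and 91.9 to 119, 131 and 136 CPM (adjusted p = 0.0018). Lpl itself stood at 4869 to 5159 CPM at room temperature and at 5548 to 5960 CPM in the cold and did not pass (0.19 ± 0.12), with a difference from WT of -0.71 ± 0.17. Of 21 genes of cholesterol synthesis 3 fell and 1 rose. Hmgcs1, the enzyme before HMG-CoA reductase, fell from 181, 241 and 199 to 114, 121 and 131 CPM (adjusted p = 0.00048), and fell in WT too (-0.42 ± 0.12). Srebf2, which drives the pathway, did not pass in KO (-0.23 ± 0.09) and differed from WT by -0.74 ± 0.13.

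Of 27 genes of glucose uptake, glycolysis and pyruvate entry 6 fell and 1 rose in KO, with a median of -0.01, against 5 and 10 in WT (6 and 5 with library totals alone). Slc2a4, the insulin-responsive transporter GLUT4, fell from 442, 353 and 396 to 255, 278 and 258 CPM (adjusted p = 0.0020). Its difference from WT, -0.72 ± 0.16, was lost with library totals alone (adjusted p = 0.11). Trarg1, a regulator of GLUT4 trafficking, fell from 164, 160 and 125 to 43.1, 42.5 and 63.5 CPM, 3.01-fold on the means (adjusted p = 3.6e-05). Pdk2, a kinase that turns off pyruvate dehydrogenase, fell from 295, 226 and 272 to 120, 129 and 160 CPM, and the glycogen synthase Gys2 from 123, 94.8 and 108 to 70.4, 69.9 and 53 CPM. Trarg1, Pdk2 and Gys2 fell in WT too (-2.17 ± 0.16, -0.71 ± 0.14 and -0.46 ± 0.12), and their differences did not pass. Hk1 and Pfkp, of early glycolysis, stayed short of the threshold in KO (-0.01 ± 0.11 and 0.16 ± 0.10) and rose in WT by 1.01 ± 0.11 and 1.06 ± 0.10, with differences of -1.02 ± 0.16 and -0.90 ± 0.14. Both overlap genes on the other strand. In the list as a whole 10 differences lay below and 2 above, and 2 and 3 with library totals alone.

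Insulin and growth factor genes moved both ways, 3 of 16 higher and 3 lower. Igfbp3 (chr11:7206086-7213923, minus strand), a secreted binding protein of insulin-like growth factors, rose from 17.7, 19.6 and 15.9 to 74.4, 68.9 and 74.1 CPM, 4.08-fold with no overlap (log2 2.03 ± 0.12, adjusted p = 9.3e-08). It rose by 1.91 ± 0.13 in WT, and the difference was 0.12 ± 0.17. Igfbp5 fell from 127, 114 and 122 to 82.3, 68.0 and 70.8 CPM, and Akt2, the insulin-activated kinase, from 252, 234 and 235 to 127, 135 and 164 CPM. Socs2, an inhibitor of growth hormone signalling, rose from 6.79, 7.91 and 8.97 to 37.7, 34.6 and 35.3 CPM, with 2.19 ± 0.35 in KO and 2.04 ± 0.34 in WT. Of 11 genes of thyroid hormone action 3 fell and none rose: the receptors Thra (-0.40 ± 0.09) and Thrb (-0.65 ± 0.14) and their partner Rxrg (-0.79 ± 0.10). Thra shares exons with Nr1d1 on the other strand.

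Other large rises were found in genes outside these lists. Ttpa (chr4:20007938-20030785, plus strand), the vitamin E transfer protein, rose from 2.0, 2.80 and 2.25 to 26.9, 22.3 and 16.2 CPM, 9.29-fold on the means (adjusted p = 1.5e-07), and it rose in WT as well (2.83 ± 0.20). Kcne4, a potassium channel subunit, Tent5c, a poly(A) polymerase, Fgf9, a growth factor, and Tubb2a, a beta-tubulin, rose in KO by 2.65 ± 0.41, 2.03 ± 0.32, 1.87 ± 0.29 and 1.99 ± 0.15, and each rose in WT. Col12a1, a collagen associated with fibrils, was steady within groups, at 13.7, 14.2 and 11.6 CPM against 42.2, 41.9 and 40.4 CPM (adjusted p = 8.5e-09), and its rise exceeded that in WT by 1.26 ± 0.12. Frat2, an inhibitor of Gsk3, rose from 1.07, 1.27 and 1.37 to 5.61, 3.58 and 5.09 CPM, with 0.39 ± 0.28 in WT and a difference of 1.56 ± 0.39.

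Rises that lay far above those of WT included Resf1 and Cfap53. Resf1, a gene of retroelement silencing, went from 51.4, 54.6 and 49.0 to 270, 319 and 238 CPM, 5.34-fold (log2 2.42 ± 0.40, adjusted p = 0.0058), while WT gave 0.12 ± 0.38. The difference of 2.29 ± 0.55 (adjusted p = 0.018) was 1.89 with the muscle marker level as a covariate, where it did not pass (adjusted p = 0.079). Cyp1a1, a monooxygenase induced through the Ah receptor, rose from 8.29, 2.76 and 4.79 to 53, 31.4 and 11.5 CPM (adjusted p = 0.029), a call lost under 6 of 16 alternatives, the fit of only the 6 KO libraries among them (adjusted p = 0.12). Its change in WT was 1.46 ± 0.67, and the difference did not pass (1.13 ± 0.90, adjusted p = 0.42). Cfap53, a cilium gene, went from 1.23, 2.22 and 1.47 to 10.4, 12.0 and 8.78 CPM, while its WT pools ranged from 0.26 to 0.71 CPM, and the difference was 3.20 ± 0.40 (adjusted p = 6.7e-05).

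Among genes past the test with no overlap, an official symbol and a mean log2 CPM of 1 or more, the deepest fall was in Lgr6 (chr1:134983301-135105276, minus strand), a receptor for R-spondins. It fell from 48.3, 48.9 and 35.5 to 9.76, 8.38 and 14.6 CPM, 4.06-fold on the means (log2 -2.02 ± 0.20, adjusted p = 6.6e-05). In WT it rose, from 136 to 141 CPM at room temperature to 192 to 261 CPM in the cold (0.73 ± 0.18, adjusted p = 0.0064), and the difference was -2.76 ± 0.27. Tuba8, an alpha-tubulin, fell from 67.9, 35.8 and 44.4 to 13.8, 16.9 and 18.4 CPM and did not pass in WT (0.36 ± 0.21), a difference of -1.95 ± 0.30. Gipr, the receptor of the incretin GIP, fell from 5.64, 5.05 and 4.21 to 1.49, 1.90 and 1.57 CPM, and fell in WT too (-1.66 ± 0.21, difference 0.07 ± 0.27). Cebpa, the adipocyte transcription factor, fell from 239, 233 and 249 to 113, 114 and 113 CPM, with little spread in either group (adjusted p = 1.5e-06), and it fell in WT too (-1.15 ± 0.09, difference 0.06 ± 0.12). Sox6 fell from 23.1, 21.9 and 23.0 to 12.9, 10.9 and 11.5 CPM and fell further in WT, with a difference of 0.80 ± 0.12. Tspan18, Wnt11, Pnldc1, Prelp, Fam217b and C1rl fell by 1.40, 1.27, 1.26, 1.14, 1.13 and 1.64 on the log2 scale. Lctl, Hcar2 and Ppp1r3b fell by 1.38, 1.29 and 1.25 (adjusted p = 0.035, 0.043 and 0.034), and each of these calls was lost under 7 of 16 alternatives. In WT Hcar2 fell (-2.70 ± 0.45) while Lctl and Ppp1r3b did not pass, and none of their differences passed. The C1rl call was lost without cold replicate 1 (adjusted p = 0.055), and Tuba8, Cebpa, Wnt11, Pnldc1 and Prelp overlap genes on the other strand.

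Of 18 circadian clock genes 4 rose and 2 fell in KO, against 7 and 3 in WT (6 and 5 with library totals alone). Arntl, which encodes Bmal1, rose from 6.76, 6.93 and 5.61 to 27.1, 19.6 and 17.8 CPM (log2 1.74 ± 0.25, adjusted p = 0.0016), and rose in WT (2.43 ± 0.26). Npas2 rose from 0.137, 0.286 and 0.228 to 3.24, 1.08 and 0.586 CPM, a call lost without room temperature replicate 4 (adjusted p = 0.063), without replicate 6 (0.052) and with replicate 6 of KO and replicate 2 of WT both left out (0.068). The output factor Dbp fell from 29.3, 20.6 and 27.6 to 11.2, 13.5 and 14.4 CPM, and Hlf from 15.8, 11.3 and 16.2 to 8.50, 9.06 and 9.99 CPM. The Hlf response lay above that of WT by 1.05 ± 0.17. Clock and Nr1d1 did not pass in KO (0.05 ± 0.11 and 0.15 ± 0.16) and rose in WT, with differences of -0.83 ± 0.16 and -1.13 ± 0.23. Arntl, Dbp and Nr1d1 overlap genes on the other strand.

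For protein quality control outside the heat shock list, the KO counts lay near the shares over all genes of 7.29% higher and 7.56% lower. In the endoplasmic reticulum list 1 of 20 rose and 2 fell in KO, against 10 and 6 in WT (8 and 7 with library totals alone). Hspa5, the chaperone BiP, rose from 226, 274 and 245 to 322, 346 and 311 CPM (adjusted p = 0.0078), and Herpud1, of protein degradation at that membrane, fell from 41.3, 34.2 and 39.3 to 25.6, 26.5 and 30.2 CPM. Manf, a secreted chaperone, stood at 0.05 ± 0.09 in KO and rose in WT, a difference of -1.44 ± 0.12, and it shares exons with Rbm15b. Of 28 proteasome genes 3 rose and 1 fell in KO, against 18 and 0 in WT, and with library totals alone 1 and 0 against 11 and 0. Psma1 rose from 117, 131 and 115 to 188, 198 and 190 CPM (adjusted p = 0.00011), whereas the ATPase subunit gene Psmc4 did not pass (0.13 ± 0.08) and differed from WT by -0.69 ± 0.11. In the integrated stress response list 2 of 23 rose and 2 fell. Ppp1r15a, which restores translation, rose from 34.4, 42.5 and 34.2 to 63.9, 62.2 and 75.8 CPM, Vldlr fell from 70.3, 74.3 and 60.1 to 30.8, 28.0 and 39.7 CPM, and Atf5 did not pass (0.17 ± 0.09) with a difference from WT of -1.23 ± 0.13. Ppp1r15a and Atf5 overlap genes on the other strand.

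Of 19 p53 targets 7 rose and 1 fell, median 0.33, and in WT 7 rose and 6 fell, median -0.06 (4 and 7 with library totals alone). Fas, the death receptor, rose in KO from 13.6, 11.9 and 12.4 to 21.3, 18.2 and 17.9 CPM (adjusted p = 0.0013) and fell in WT (-0.91 ± 0.11), a difference of 1.51 ± 0.15. Trp53inp1 moved the same way, from 22.1, 24.8 and 24.2 to 43.5, 34.0 and 32.7 CPM in KO, with a fall of 0.74 (SE 0.13) in WT and a difference of 1.38 ± 0.19. Zmat3, an RNA-binding protein, rose in both genotypes, and the nuclease gene Aen rose in both with a smaller rise in KO (difference -0.70 ± 0.12). Phlda3, which restrains Akt, fell from 214, 168 and 178 to 83.5, 88.3 and 93.0 CPM as the 1 member that fell. In the cell cycle list 2 of 24 rose and 1 fell. Mki67 and Top2a, markers of dividing cells, rose from 2.45 to 2.96 CPM and from 1.26 to 1.56 CPM at room temperature to 4.07 to 5.31 and 2.30 to 2.81 CPM. The Top2a call was lost without cold replicate 1 (adjusted p = 0.060) and with replicate 6 of KO and replicate 2 of WT at room temperature left out (0.052), and its difference from WT was 1.74 ± 0.35.

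Of the splicing factors, Tra2a rose from 68.4, 85.5 and 79.0 to 125, 110 and 119 CPM and Tra2b from 32.7, 33.2 and 33.0 to 45.2, 42.0 and 43.9 CPM. Neither passed in WT (-0.06 ± 0.09 and -0.04 ± 0.09), and the differences were 0.66 ± 0.13 and 0.45 ± 0.12 (adjusted p = 0.0020 and 0.013). Cirbp, an RNA-binding protein induced by cold in cultured cells, fell from 21.1, 12.5 and 14.0 to 8.90, 10.3 and 9.65 CPM (log2 -0.72 ± 0.16, adjusted p = 0.0068), between -0.87 and -0.46 over the alternatives.

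Of 20 chemokine and inflammatory genes 4 rose and none fell, with a median of 0.43. The macrophage chemokines Ccl6 and Ccl9 rose from 9.77, 12.6 and 12.5 to 38.6, 32.3 and 28.2 CPM and from 5.86, 8.36 and 9.29 to 21.9, 16.5 and 19.3 CPM (adjusted p = 1.5e-06 and 3.2e-05), and both rose in WT. Nfkbia, the inhibitor of NF-kappaB, and Vcam1, an adhesion molecule, rose by 0.49 ± 0.10 and 0.68 ± 0.15. Macrophage markers moved with them: 5 of 12 rose and none fell, and their summed level was 402, 289 and 317 CPM in the cold pools against 247, 268 and 340 CPM in the others, groups that overlap. Cd163 rose from 4.24, 3.27 and 5.38 to 22.0, 16.0 and 8.48 CPM (adjusted p = 0.011). The calls of C1qa, C1qb, C1qc and Mrc1 were each lost under 5 or more of 16 alternatives, and with library totals alone 1 of the 12 rose in KO. In WT 3 of the 12 rose and none fell, with a median of 0.31 against 0.27 in KO, and no difference passed. The part of macrophage number in the chemokine rises was not tested.

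Of 24 interferon-stimulated genes 1 rose in KO and none fell, median 0.04, whereas 12 fell in WT, median -0.52. The RNA sensor Ddx58 stood at 14.8 to 16.5 CPM at room temperature and at 14.6 to 16.0 CPM in the cold in KO and fell by 1.09 (SE 0.11) in WT, a difference of 1.05 ± 0.15. In this list 7 differences lay above and none below, and 13 and none with library totals alone.

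**Figure D4:**
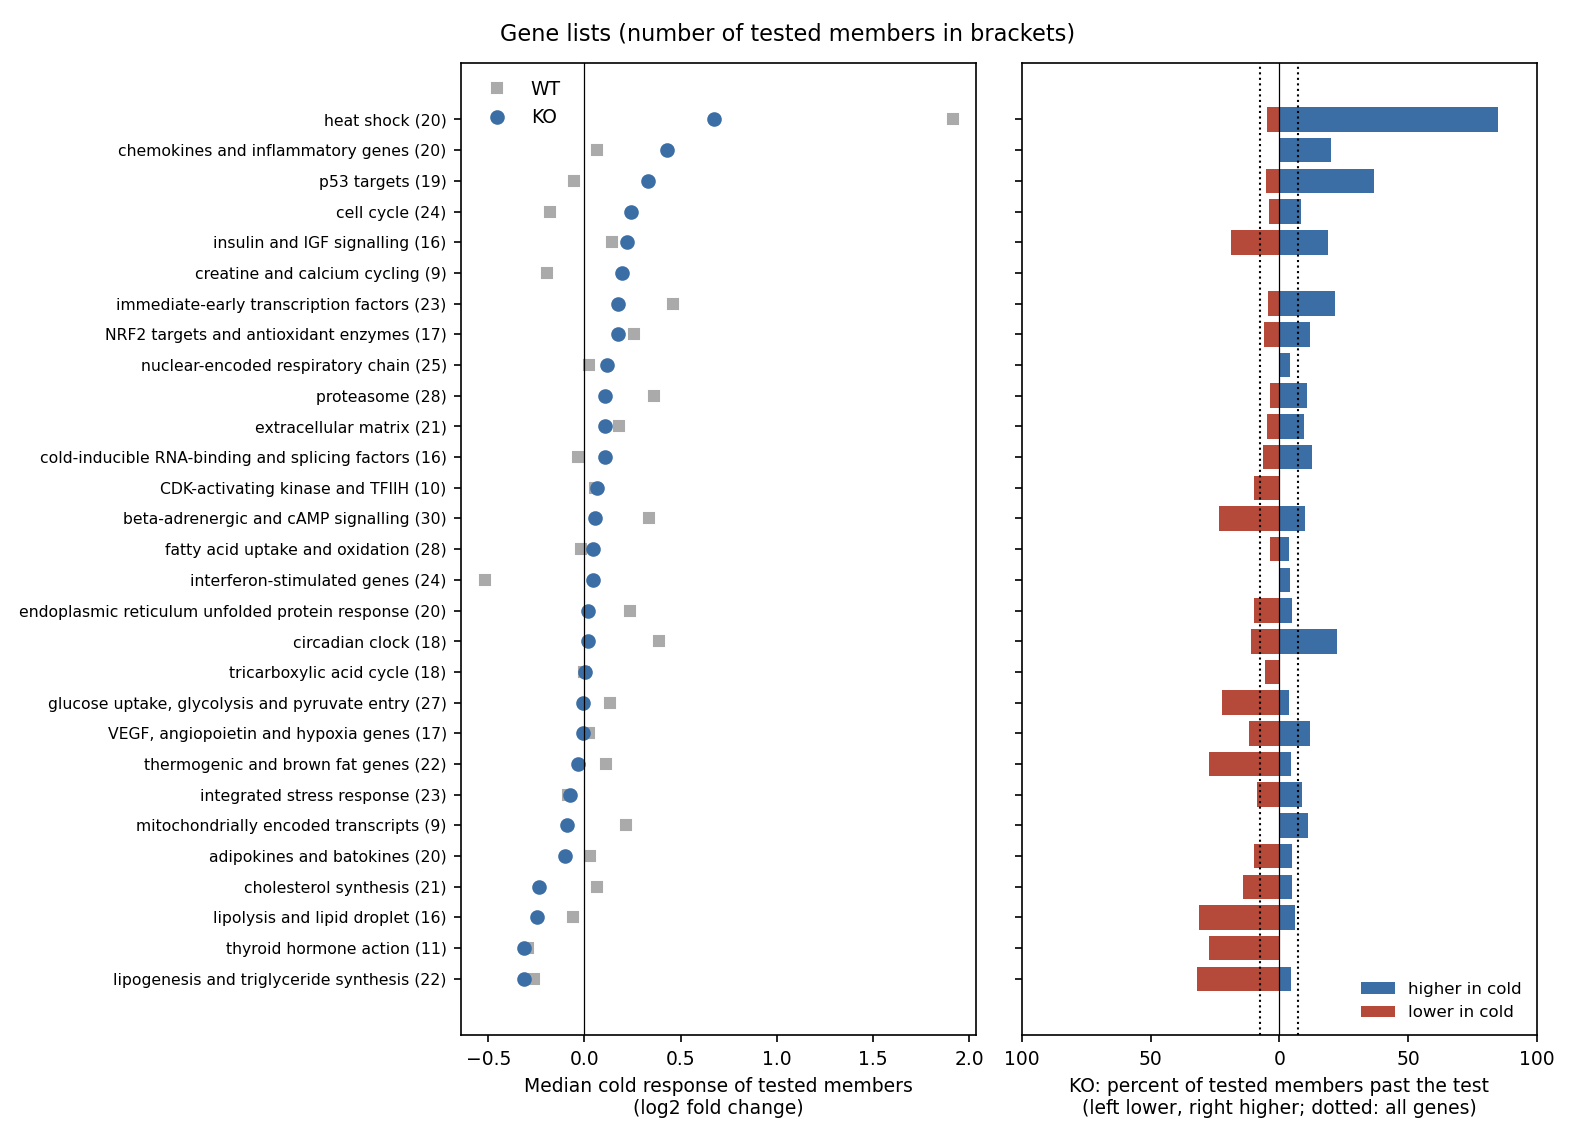
Left, median cold response of the tested members of 29 gene lists (log2 fold change) in KO (circles) and WT (squares). Right, percent of tested members past the test in KO, lower to the left and higher to the right, with dotted lines at 7.56% and 7.29%, the shares over all genes; the heat shock list stands out with 17 of 20 members higher.

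Set against the WT response, the KO response overlapped it in part. Of the 1109 genes that rose in KO, 721 (65.0%) also rose in WT, which is 20.6% of the WT rises, and of the 1149 that fell, 632 (55.0%) also fell in WT, 17.9% of the WT falls. Another 35 genes rose in KO and fell in WT, among them Fas and Trp53inp1, and 91 fell in KO and rose in WT, among them Lgr6 and Adcy4. Of 651 genes that rose more than 2-fold in WT, 37.0% were higher and 0.92% lower in KO, with a median of 0.43 against 1.35 in WT. Of 1126 genes that fell more than 2-fold in WT, 18.6% were lower and 0.27% higher in KO, with a median of -0.33 against -1.37. Since these genes were chosen by their WT value, that value is high by choice, and the KO medians come from other pools. A difference between the responses was called for 779 of the 2258 genes that changed in KO.

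Beside Lgr6, Cfap53, Resf1 and Ppargc1a, large differences between the responses were found in the following genes. Angpt1, an angiopoietin, did not pass in KO (-0.45 ± 0.24), with pools of 3.12 to 7.53 CPM at both temperatures, and fell in WT from 17.6, 26.7 and 25.9 to 2.17, 1.54 and 1.79 CPM, a difference of 3.21 ± 0.36. Sntb1, a syntrophin, stood at 21.8 to 33.0 CPM in all KO pools and fell in WT by 2.84 (SE 0.13), a difference of 2.60 ± 0.17 (adjusted p = 2.1e-07). Map2k6, the kinase upstream of p38, stood at 0.50 ± 0.24 in KO and -2.34 ± 0.27 in WT. Hcar1, the lactate receptor, fell in both, by 1.17 (SE 0.25) in KO and by 3.90 (SE 0.29) in WT, and its call in KO was lost without cold replicate 1 (adjusted p = 0.061). On the other side, Dgkg, a diacylglycerol kinase, rose by 1.66 ± 0.25 in KO and by 5.54 ± 0.29 in WT, and Hpx, the haem scavenger, by 1.61 ± 0.23 and 4.43 ± 0.28. Ano1, a chloride channel, fell in WT by 2.85 (SE 0.16), and its smaller fall in KO of 0.53 (SE 0.15) was lost under 4 of 16 alternatives. Acat3, Zfp185 and Ncapg2 did not pass in KO and differed from WT by 2.63 ± 0.63, 2.29 ± 0.37 and 2.19 ± 0.29, and the Acat3 difference was lost with replicate 6 of KO and replicate 2 of WT at room temperature left out (adjusted p = 0.055). Acot5, a thioesterase of fatty acyl-CoA, went from 6.76, 9.28 and 6.42 to 20.0, 22.3 and 22.2 CPM in KO with no overlap and did not pass (1.52 ± 0.48, adjusted p = 0.069), though it passed when only the 6 KO libraries were fitted (adjusted p = 1.8e-05). It rose by 4.93 ± 0.60 in WT, a difference of -3.41 ± 0.76. Fabp3, a fatty acid carrier of muscle and brown fat, stood at -1.16 ± 0.36 in KO (adjusted p = 0.063, past the threshold under 5 of 16 alternatives) and 1.18 ± 0.35 in WT, a difference of -2.34 ± 0.50, and it overlaps genes on the other strand. The pseudogene Rpl31-ps8, whose reads may come from other copies, differed by -2.38 ± 0.40. Pimreg and Lclat1 did not pass in KO (0.41 ± 0.16 and -0.38 ± 0.27) and rose in WT by 3.93 ± 0.22 and 2.59 ± 0.29. For Pimreg the room temperature mean was 2.55 CPM (KO) against 0.238 (WT), with close cold means, 3.38 against 3.64. Lclat1 also had the higher KO mean without cold, 173 against 67.4 CPM, but the lower one with it, 133 against 406. The same held for Acot5 (7.49 against 1.29 CPM, then 21.5 against 35.6). Fabp3 was lower in KO without cold (98.4 against 270 CPM). The part of these starting levels in the differences was not tested.

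**Figure D5:**
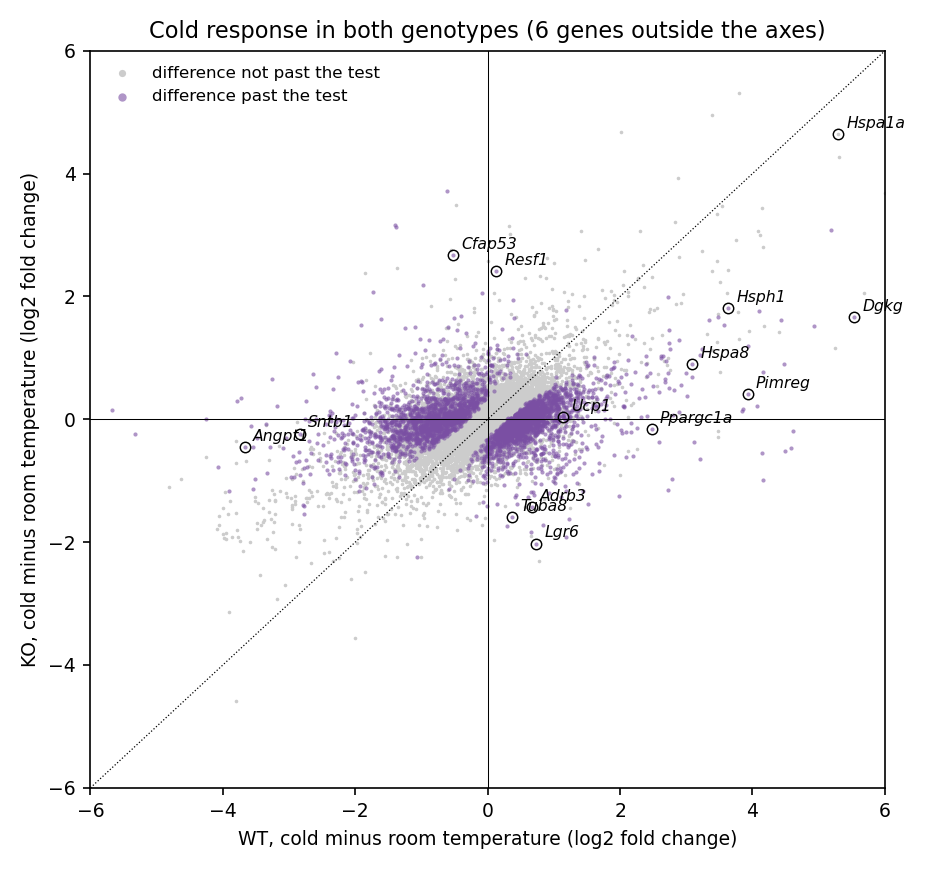
Cold response of each gene in WT (x axis) and in KO (y axis), as log2 fold changes from 3 against 3 pools each, with equality as a dotted line and 6 genes outside the axes. Purple points, 3581 genes, differ between genotypes at an adjusted p below 0.05; Ucp1 and Ppargc1a lie right of zero near the KO zero line, and Lgr6 lies below it.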

How the data were processed

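RNA was sequenced from interscapular brown fat in 12 libraries, 4 groups of 3 pools of 2 mice, with groups taken from the labels. The deposited values were raw counts per gene; the authors used STAR to align the reads and HTSeq to count them, on GRCm38, per the submitters' processing notes, versions not given. Each file held 53379 gene rows; its summary rows (1.64 to 2.26% for reads outside genes, 26.6 to 30.2% for reads with several alignments) were left out. The strand setting is not given beyond a file name, so overlapping genes are uncertain. Names and coordinates came from a GRCm38 annotation holding 53274 of the IDs.

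In R 4.3.3, edgeR 4.0.16 was run with filterByExpr (15208 genes), TMM factors and 1 mean per group over all 12 libraries, with robust quasi-likelihood tests, 2-sided, and Benjamini-Hochberg adjustment over all genes tested at 0.05. Standard errors are the log2 fold change over the square root of F. Levels are TMM-scaled CPM. The biological coefficient of variation was 13.6%. The fit was tested on counts simulated with its own estimates of spread, so effects of single pools were not in them. Of 50 genes at each size, it called 58% of 1.5-fold changes in KO and 90% of 2-fold changes. For 3-fold and 4-fold changes the shares were 98% and 100%. Totals per library ran from 27609717 to 36792555 counts.

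The comparison, the 29 lists of programmes, the 11 of cell types and the named genes were chosen with earlier results of these data known. The genes named were Cdk7, Dio2, Ppargc1a and Ucp1, the 15 largest rises and falls past the test without overlap (mean log2 CPM 1 or more), the 5 of smallest p each way, the 10 largest differences between genotypes each way, and up to 4 members of each list by p in either comparison. All genes of the size ranks are named; from the lists fewer are named than the rule allows, with preference for calls that held, and some are not reported here. Alternatives were other scalings (median-ratio, library totals alone), other filters, DESeq2 1.42.0, voom in limma 3.58.1, mitochondrial genes left out, a muscle covariate, only the 6 KO libraries, and libraries left out.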

Additional observations from a re-analysis of the deposited data

Results flagged for a closer look

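A test of the difference itself put the cold response of the following genes apart between KO and WT; each value is the KO log2 fold change minus the WT one, by edgeR with Benjamini-Hochberg adjustment, and no cause was tested. Differences of -2 or below were those of Dgkg (-3.88), Pimreg (-3.51), Acot5 (-3.41), Lclat1 (-2.97), Hpx (-2.82), Lgr6 (-2.76), B4galnt2 (-2.75), Ppargc1a (-2.64), Rpl31-ps8 (-2.38), Fabp3 (-2.34), Esrrb (-2.33), Hspa8 (-2.20) and Adrb3 (-2.10). Between -2 and -1 lay Tuba8 (-1.95), Ckb (-1.86), Hsph1 (-1.83), Hsp90ab1 (-1.52), Manf (-1.44), Alpl (-1.37), Hspb8 (-1.34), Atf5 (-1.23), Adcy3 (-1.13), Nr1d1 (-1.13), Gpam (-1.11), Ucp1 (-1.10), Jund (-1.10), Dgat1 (-1.07) and Hk1 (-1.02). Smaller negative differences were those of Adcy4 (-0.97), Hspb1 (-0.96), Col4a1 (-0.96), Adrb1 (-0.95), Lpin1 (-0.92), Pfkp (-0.90), Clock (-0.83), Srebf2 (-0.74), Slc2a4 (-0.72), Lpl (-0.71), Plin5 (-0.70), Aen (-0.70), Psmc4 (-0.69) and Esrra (-0.61).

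Above WT lay Angpt1 (3.21), Cfap53 (3.20), Map2k6 (2.84), Hcar1 (2.73), Acat3 (2.63), Sntb1 (2.60), Ano1 (2.31), Resf1 (2.29), Zfp185 (2.29), Ncapg2 (2.19), Top2a (1.74), Frat2 (1.56), Fas (1.51), Trp53inp1 (1.38), B3galt2 (1.36), Col12a1 (1.26), Dgat2 (1.18), Hlf (1.05), Ddx58 (1.05), Sox6 (0.80), Tra2a (0.66) and Tra2b (0.45). These 64 genes were named by the rule for named genes and are not all genes that differ.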

How the results depend on the processing

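Among the named genes, 20 of 110 called in KO and 7 of 64 differences lost the call under at least 1 alternative; since many were chosen with preference for calls that held, this says nothing of other genes. The count of genes higher in KO, 1109, became 1960 with voom and 586 with replicate 6 of KO and replicate 2 of WT at room temperature both left out, and the count lower, 1149, became 2195, 628 and, with library totals alone, 675. Leaving out 1 KO library at a time gave 601 (without cold replicate 1) to 1232 higher and 570 to 1306 lower. For the difference, 1614 above WT became 2446 with voom and 840 without both libraries, and 1138 to 1861 without 1 library; 1967 below became 1063 without both, 711 with totals alone, and 1358 to 2153 without 1 library. The cause of these shifts was not tested. No paired analysis was possible because the KO room temperature pools carry numbers 4 to 6 and the KO cold pools 1 to 3. In the WT libraries alone the replicate block gave 3198 higher and 3215 lower, against 3398 and 3410 without it.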

Other observations

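Ribosomal RNAs of the mitochondrion, mt-Rnr1 and mt-Rnr2, were among the most abundant transcripts that rose in KO. They were chosen after their values were seen. The small rRNA mt-Rnr1 went from 2056, 3285 and 2414 CPM at room temperature to 8277, 7452 and 7756 CPM in the cold (log2 1.60 ± 0.17, adjusted p = 3.2e-05), and the large rRNA mt-Rnr2 from 4197, 8313 and 5222 to 15109, 14602 and 14336 CPM (1.31 ± 0.22, adjusted p = 0.0021). Both rose in WT, by 1.95 ± 0.17 and 2.23 ± 0.23, and the differences did not pass (adjusted p = 0.31 and 0.050). Neither call in KO was lost under any of the 15 alternatives run on them. The library kit is not given in the sources used here, and its part in rRNA counts was not tested. Of 9 mitochondrially encoded genes in the list of protein-coding transcripts 1 rose and none fell, median -0.09. Of 25 nuclear respiratory chain genes 1 rose (Ndufa9, complex I) and of 18 genes of the tricarboxylic acid cycle 1 fell (Ogdh), and both calls were lost under 9 or more of 16 alternatives.

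The KO counts of the following lists are to be read against the shares over all genes, 7.29% higher and 7.56% lower. Of 17 genes of the VEGF, angiopoietin and hypoxia list 2 rose and 2 fell. Edn1, the vasoconstrictor endothelin, rose from 2.27, 3.65 and 2.15 to 6.30, 6.94 and 5.58 CPM (adjusted p = 0.0013), and Nos3, the endothelial nitric oxide synthase, fell from 28.5, 26.9 and 32.3 to 18.0, 19.2 and 20.3 CPM (adjusted p = 0.00049). Of 21 matrix genes 2 rose and 1 fell. Col4a1, a basement membrane collagen, rose from 613, 817 and 728 to 1047, 1209 and 1191 CPM, less than in WT (difference -0.96 ± 0.17). Edn1, Nos3 and Col4a1 overlap genes on the other strand. Of 17 antioxidant genes 2 rose and 1 fell, with Srxn1, which repairs peroxiredoxins, going from 53.3, 60.1 and 56.3 to 121, 117 and 85.9 CPM and catalase, Cat, from 492, 432 and 442 to 355, 360 and 340 CPM. Of 9 genes of creatine and calcium cycling edgeR called 0 in KO at an adjusted p below 0.05 and 2 at an unadjusted p below 0.05, DESeq2 called 0 and voom 1. Ckb and Alpl, of the creatine cycle, stood at 0.19 ± 0.19 and 0.23 ± 0.16 in KO and rose in WT by 2.06 ± 0.20 and 1.60 ± 0.17. In that list 4 differences lay below and none above although its median difference was 0.23, and 2 and 2 with library totals alone. Of 20 adipokine genes 1 rose and 2 fell, and of 10 genes of the CDK-activating kinase and TFIIH 1 fell and none rose. Of 9 fibroblast and preadipocyte markers 1 rose: Ly6a, from 53.4, 54.2 and 60.6 to 80.9, 77.9 and 74.6 CPM (adjusted p = 0.00084).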
